A study of Sus scrofa with 36 samples.

Results

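The 6 genes of sialic acid metabolism and of the polysialylated form of NCAM followed here, in the hippocampus of young piglets, are GNE, NANS, NPL, ST3GAL3, ST8SIA4 and NCAM1. A gene was represented by probe sets whose annotation names exactly 1 of these symbols, and where it had several, by the one with the highest mean over all 36 arrays. These are 6 of the 6765 genes named in this way and of the 6034 named genes that passed the filter on dim probe sets. They hold 11 probe sets, of which 10 were tested. The members were chosen by name and not by a measured difference, although earlier results of these data were known when they were chosen.

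All samples were hippocampus from male Landrace by Large White piglets that entered the study at day 3 of age and were sampled at day 38, with 12 animals per feeding group. Every group was fed a milk replacer. Controls received it with its basal lactoferrin content, which the labels do not quantify, the medium dose group received 0.6 g/L of added lactoferrin, and the high dose group 1.2 g/L. Lactoferrin is an iron-binding milk glycoprotein that itself carries sialic acid. The descriptions also give every sample a set code (S1, S2, S3, S4 or S5). What the 5 codes stand for is not given in the sources used here, and S1 held no medium dose sample. The RNA is from dissected tissue, so fewer cells of a type and less RNA per cell cannot be told apart in any result here.

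Sialic acids are acidic sugars that cap glycoproteins and gangliosides, and the brain is rich in them. In cells GNE makes and phosphorylates N-acetylmannosamine from UDP-GlcNAc, NANS condenses the product into sialic acid 9-phosphate, and, after dephosphorylation and activation, sialyltransferases attach the sugar to glycans. ST8SIA4 and its relative ST8SIA2 build long chains of polysialic acid, mainly on the neural cell adhesion molecule NCAM1, which loosen adhesion and are abundant in the developing brain and in places of lasting plasticity such as the hippocampus. NPL opens the opposite route by cleaving free sialic acid to N-acetylmannosamine and pyruvate.

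All values are log2 expression, so a difference of 1 is a doubling, and the deposited values have 1 decimal. Array medians lay between 6.6 and 6.7, and no arrays were identical. Correlations of each array with the remaining ones averaged between 0.961 and 0.988. High dose replicate 2, in set S1, had the lowest average. A polyadenylated spike-in control (Dap) was present on 26 arrays and absent on 10. The mean of 9 neuron marker genes was 11.3 ± 0.21 in control, 11.35 ± 0.16 in medium dose and 11.31 ± 0.28 in high dose samples (SD, n = 12 each). Immature neuron transcripts were represented by 4 of 13 listed genes (STMN1, ELAVL4, NEUROD1 and CALB2). DCX was not among the genes measured by a single-symbol probe set that passed the filter. The mean of the 4 is thus a partial measure, and whether it follows immature neurons was not tested. NEUROD1 had the largest SE of the 4 for medium dose minus control, at 0.23 against 0.06 to 0.13 (limma). The 4 genes did not go the same way in that contrast. STMN1 differed by -0.14 and ELAVL4 by -0.12, against 0.34 for NEUROD1 and 0.02 for CALB2.

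The feeding comparison asks whether added lactoferrin came with different levels of these genes. None of the 6 members passed an adjusted p of 0.05 at either dose (limma, adjusted over 18006 probe sets). The same held for all probe sets in these contrasts, with 0% called for medium dose minus control, for high dose minus control, for high dose minus medium dose, for the mean of both doses minus control and for any difference between the 3 feeding groups. Without adjustment, 3 of 6 members (ST3GAL3, NPL and ST8SIA4) had p under 0.05 for medium dose minus control, all lower in the medium dose group, against 6.93% of all probe sets in either direction and 3.15% lower. For high dose minus control 0 of 6 did, against 4.94% of all probe sets, and for high minus medium dose 0 of 6, against 5.98%. For the mean of both doses minus control, 2 of 6 did (ST3GAL3 and ST8SIA4), both lower, against 5.71% in either direction and 2.68% lower. In the test of any difference between the 3 feeding groups 0 of 6 had p under 0.05, against 5.89% of probe sets. These contrasts share samples, so their counts are not independent of each other.

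The median difference over the 6 members was -0.12 for medium dose minus control and -0.11 for high dose minus control, where the medians over all tested probe sets were 0.0006 and -0.0005. Of the 6 differences, 4 were negative at the medium dose and 5 at the high dose, where 49.7% and 50.3% of all probe sets were negative.

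**Figure D1:**
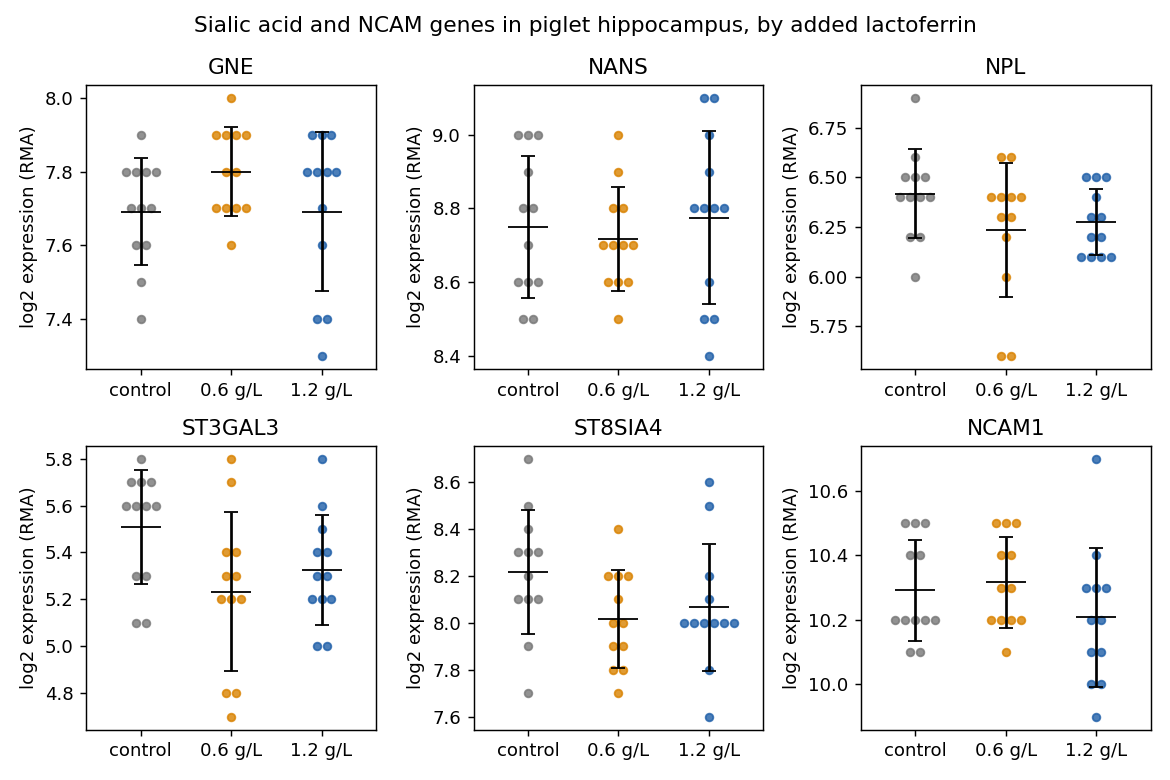
Log2 expression of each gene (y axis, its own range per panel) in the 36 hippocampus samples by feeding group (x axis, control, 0.6 g/L and 1.2 g/L added lactoferrin). Each point is 1 animal, the long bar is the group mean and the whiskers are 1 SD (n = 12). The 3 groups overlap in every panel, and the medium dose group holds 3 ST3GAL3 values under 5.0 and 2 NPL values at 5.6.

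Neither gene of sialic acid synthesis passed the test at any dose. GNE, the enzyme at the start of the route, had a lowest, median and highest value of 7.4, 7.7 and 7.9 in control, 7.6, 7.8 and 8.0 in medium dose and 7.3, 7.8 and 7.9 in high dose samples. The 3 groups overlapped over nearly their whole range, and the lowest value belonged to high dose replicate 2. The log2 difference was 0.09 for medium dose minus control (SE 0.07, 95% interval -0.05 to 0.24, adjusted p = 0.852, limma) and -0.01 for high dose minus control (SE 0.07, 95% interval -0.15 to 0.13, adjusted p = 0.997, limma). Without high dose replicate 2 the second of these was 0.03, so its sign is not settled.

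NANS, the synthase that follows, had 8.5, 8.75 and 9.0 in control, 8.5, 8.7 and 9.0 in medium dose and 8.4, 8.8 and 9.1 in high dose samples as lowest, median and highest. The groups again shared most of their range. Its differences were -0.03 for medium dose minus control (95% interval -0.15 to 0.09, adjusted p = 0.95, limma) and 0.01 for high dose minus control (95% interval -0.10 to 0.13, adjusted p = 0.997). The difference of high minus medium dose was 0.04 (95% interval -0.08 to 0.16, adjusted p = 0.909).

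Among the 9 tested genes that supply UDP-GlcNAc and sialic acid, GNE and NANS included, 0 were higher and 1 lower at unadjusted p under 0.05 for medium dose minus control. Over all probe sets 6.93% were called at that p in either direction. The lower gene was NAGK, which phosphorylates N-acetylglucosamine, at -0.13 (SE 0.06, p = 0.0327, adjusted p = 0.671, limma). At the high dose NAGK differed from control by -0.09 (p = 0.11), and 0 of 9 genes had p under 0.05. The list's median difference was -0.0016 at the medium dose and 0.0093 at the high dose.

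The sialyltransferases ST3GAL3 and ST8SIA4 had lower means in both dose groups than in control. ST3GAL3 adds sialic acid in alpha-2,3 linkage to terminal galactose. Its lowest, median and highest values were 5.1, 5.6 and 5.8 in control, 4.7, 5.25 and 5.8 in medium dose and 5.0, 5.3 and 5.8 in high dose samples. The groups shared their highest value, while 10 of 12 samples in each dose group were under the control median.

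For ST3GAL3 the difference was -0.28 for medium dose minus control (SE 0.12, 95% interval -0.52 to -0.04, p = 0.0227, adjusted p = 0.659, limma), which is 0.824 times the control level. For high dose minus control it was -0.18 (SE 0.12, 95% interval -0.41 to 0.06, p = 0.13, adjusted p = 0.976). For the mean of both doses minus control it was -0.23 (SE 0.10, p = 0.0288, adjusted p = 0.847), with 20 of 24 dosed samples below the control median. Without high dose replicate 2 the difference for both doses was -0.20 (p = 0.0535). ST3GAL3 is a dim probe set with a mean of 5.36, and the spread within its groups was larger than for 86.5% of tested probe sets. That share was 82.0% for NPL and 81.2% for ST8SIA4, and 43.2% for GNE, 49.55% for NCAM1 and 61.0% for NANS. Without medium dose replicate 7, which held the lowest ST3GAL3 value (4.7), the medium dose difference for ST3GAL3 was -0.22 with p = 0.0583 (limma). Without the 8 samples of set S3 it was -0.16 with p = 0.24.

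ST8SIA4, the polysialyltransferase, had a lowest, median and highest value of 7.7, 8.25 and 8.7 in control, 7.7, 8.0 and 8.4 in medium dose and 7.6, 8.0 and 8.6 in high dose samples. The groups overlapped over most of their range, and 11 of 12 medium dose and 10 of 12 high dose values were under the control median. The lowest high dose value was in high dose replicate 2.

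For ST8SIA4 the difference was -0.21 for medium dose minus control (SE 0.10, 95% interval -0.43 to -0.0013, p = 0.0487, adjusted p = 0.716, limma) and -0.15 for high dose minus control (SE 0.10, p = 0.142, adjusted p = 0.976). The mean of both doses differed from control by -0.18 (SE 0.09, p = 0.0477, adjusted p = 0.867), with 21 of 24 dosed samples below the control median. Without high dose replicate 2 the difference for both doses was -0.15 (p = 0.103). Leaving out 1 sample at a time gave p under 0.05 for the medium dose difference in 12 of 36 fits, and the difference itself lay between -0.29 and -0.16 over these fits. Without high dose replicate 2, which shares in the common estimate of spread and of set S1, the medium dose difference was -0.19 (p = 0.0684).

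The second ST8SIA4 probe set, with a mean of 5.82, differed by -0.22 (SE 0.13, p = 0.0989) for medium dose minus control and by -0.08 (SE 0.13, p = 0.532) for high dose minus control. The 2 probe sets varied together over the 36 arrays (Pearson r = 0.71 with a permutation p of 1e-05, Spearman rho = 0.67 with a permutation p of 3e-05, adjusted p of r over 8 pairs = 2e-05, and r = 0.68 once the 2 arrays farthest from the median of the second measure were left out, a check called "without 2 arrays" from here on). Within set codes r was 0.72 in S2, 0.75 in S3 and 0.82 in S4. ST8SIA2, the other polysialyltransferase, had 0 single-symbol probe sets here, so no value is given for it.

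**Figure D2:**
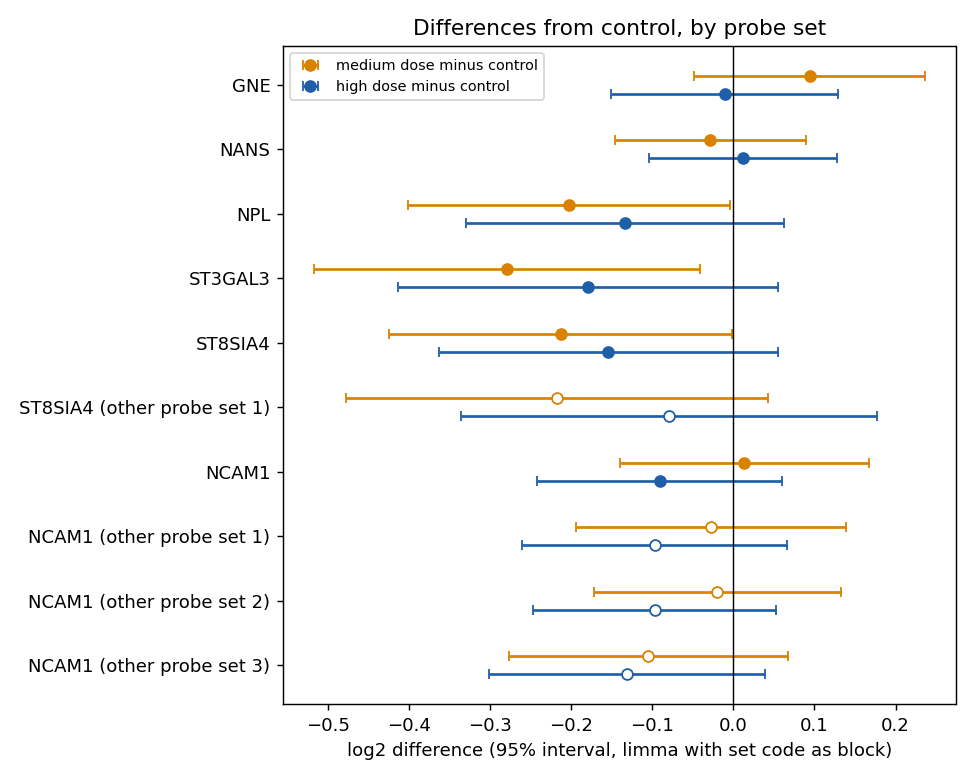
Log2 difference from control (x axis) for the medium dose (orange, upper) and the high dose (blue, lower) for each tested probe set of the 6 genes (y axis). Points are limma estimates with set code as a block, bars are 95% intervals, filled points mark the probe set chosen for the gene and open points its other probe sets. Medium dose intervals for NPL, ST3GAL3 and the chosen ST8SIA4 probe set lie below 0, with ST8SIA4's upper end at -0.0013, and every high dose interval includes 0.

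Among the 7 tested sialyltransferases, the 2 with p under 0.05 for medium dose minus control were ST3GAL3 and ST8SIA4, which are members counted above. Both were lower and 0 of 7 were higher at that p, against 6.93% of all probe sets in either direction and 3.15% lower. Of the 7 differences, 6 were negative, with a median of -0.06. ST3GAL4 (-0.0069) and ST6GALNAC4 (-0.0125) were among these 6 and lay close to 0. At the high dose these 2 genes were at 0.09 and 0.05, and 5 of 7 differences were negative. ST6GAL1, which adds sialic acid in alpha-2,6 linkage, differed by -0.09 at the medium dose (p = 0.307) and -0.16 at the high dose (SE 0.08, p = 0.063, adjusted p = 0.976, limma). ST3GAL1 and ST6GALNAC5 differed from control by -0.06 (p = 0.363) and 0.14 (SE 0.20, p = 0.505) at the medium dose.

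NCAM1, the carrier of polysialic acid, had a lowest, median and highest value of 10.1, 10.2 and 10.5 in control, 10.1, 10.3 and 10.5 in medium dose and 9.9, 10.2 and 10.7 in high dose samples. The control and medium dose groups covered the same range and the high dose group spread to both sides of it. Its difference was 0.01 for medium dose minus control (SE 0.08, 95% interval -0.14 to 0.17, adjusted p = 0.989, limma) and -0.09 for high dose minus control (SE 0.07, 95% interval -0.24 to 0.06, p = 0.231, adjusted p = 0.976).

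The other 3 NCAM1 probe sets gave -0.03, -0.02 and -0.10 for medium dose minus control and -0.10, -0.10 and -0.13 for high dose minus control, with unadjusted p between 0.126 and 0.236 at the high dose. All 4 probe sets were thus on the lower side at the high dose, without passing the test, and they measure the same RNA samples. Their 6 pairwise correlations over the 36 arrays ran from r = 0.55 (permutation p = 0.00044) to r = 0.79 (permutation p = 1e-05), and Spearman rho over the 6 pairs from 0.57 to 0.77. A p of 1e-05 is the smallest that 100000 permutations can give. For the pair at r = 0.55, r was 0.55 again without 2 arrays.

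Of the 6 tested genes for NCAM partners and other polysialic acid carriers, NCAM1 included, 1 was higher and 0 lower at unadjusted p under 0.05 for medium dose minus control. Over all probe sets 6.93% were called at that p in either direction. The higher gene was FGFR1, the fibroblast growth factor receptor that NCAM1 can engage, at 0.21 (SE 0.08, p = 0.0107, adjusted p = 0.612, limma). At the high dose FGFR1 lay close to control, and high minus medium dose was -0.21 (p = 0.0104, adjusted p = 0.811). NRP2, which carries polysialic acid on some immune cells, differed from control by 0.12 at the medium dose (p = 0.132) and 0.15 at the high dose (p = 0.0631). Of the sialic acid binding lectins, 3 were tested and 0 had p under 0.05. MAG, a myelin lectin, differed by -0.23 at the medium dose (p = 0.122) and by 0.04 at the high dose (p = 0.808).

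NPL, the lyase that breaks sialic acid down, had a lowest, median and highest value of 6.0, 6.4 and 6.9 in control, 5.6, 6.35 and 6.6 in medium dose and 6.1, 6.25 and 6.5 in high dose samples. The group medians were within 0.15 of each other, and medium dose replicates 2 and 7, both at 5.6, lay apart from the other medium dose samples, of which the lowest was at 6.0. These 2 animals also held low ST3GAL3 values, at 4.8 and 4.7. Under the control median were 6 of 12 medium dose and 8 of 12 high dose values.

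For NPL the difference was -0.20 for medium dose minus control (SE 0.10, 95% interval -0.40 to -0.0038, p = 0.046, adjusted p = 0.708, limma), -0.13 for high dose minus control (SE 0.10, p = 0.176, adjusted p = 0.976) and -0.17 for the mean of both doses minus control (SE 0.08, p = 0.0536). Without medium dose replicate 7 the medium dose difference was -0.15 (p = 0.122), and it had p under 0.05 in 24 of 36 fits that left out 1 sample. Without high dose replicate 2 it was -0.20 (p = 0.0522). The second NPL probe set had a mean of 4.89, under the filter at 4.92, and was not tested. Its mean was 4.917 in control, 4.833 in medium dose and 4.925 in high dose samples. Within set codes it was lower than control in 2 and higher in 2 of 4 sets at the medium dose. At the high dose it was lower in 2 and higher in 3 of 5 sets. It was only loosely related to the first (r = 0.37, permutation p = 0.027, rho = 0.22, permutation p = 0.19, adjusted p of r over 8 pairs = 0.027), and r was 0.19 without 2 arrays, so that relation rests on those arrays.

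Microglial markers are given beside NPL, and none of them passed the adjusted test in any feeding contrast. The mean of 10 microglia markers was 7.71 ± 0.26 in control (7.38 to 8.37), 7.53 ± 0.19 in medium dose (7.24 to 7.89) and 7.54 ± 0.12 in high dose samples (7.37 to 7.73), each with its SD over 12 samples. The fitted difference was negative for 10 of 10 markers at both doses, where 49.7% and 50.3% of all probe sets were negative. Lower at unadjusted p under 0.05 (limma) were 4 of 10 for medium dose minus control and 4 of 10 for high dose minus control. For the mean of both doses minus control 6 of 10 were. Over all probe sets 3.15% were lower at that p in the first contrast and 2.68% in the last. In the second, 4.94% were called in either direction. In each contrast 0 passed an adjusted p of 0.05. P2RY12, a purinergic receptor of microglia, averaged 9.91 in control, 9.67 in medium dose and 9.58 in high dose samples. With the microglia mean as a covariate, the NPL difference was -0.08 for medium dose minus control (p = 0.39), while that of ST3GAL3 was -0.36 (p = 0.00786) and that of ST8SIA4 -0.19 (p = 0.117).

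Oligodendrocyte and neuron markers are given beside ST8SIA4. The mean of 13 oligodendrocyte markers was 10.47 ± 0.31 in control, 10.23 ± 0.15 in medium dose and 10.46 ± 0.33 in high dose samples. The fitted difference for medium dose minus control was negative for 12 of 13, where 49.7% of all probe sets were negative. At unadjusted p under 0.05, 2 of 13 were lower, against 3.15% of all probe sets, and 0 passed an adjusted p of 0.05. Of the 9 neuron markers 0 had p under 0.05 in that contrast. With the oligodendrocyte and neuron means as covariates, ST8SIA4 differed by -0.33 for medium dose minus control (SE 0.09, p = 0.00054, adjusted p = 0.287, limma; over all settings tried for this difference the adjusted p ran to 0.999). ST3GAL3 differed by -0.31 (p = 0.0223) and NPL by -0.19 (p = 0.0887) in the same fit. The fits with marker means as covariates cannot separate cell number from RNA per cell. The microglia and oligodendrocyte means were themselves lower in medium dose than in control samples. What part cell makeup has in the dose differences was not tested.

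Levels were next compared between set codes. NANS was the only member whose level differed between the 5 set codes past an adjusted p of 0.05 (F = 9.36, p = 3.39e-05, adjusted p = 0.0125, limma with feeding group in the model), where 2.62% of probe sets were called, 472 in number, and 17.4% had unadjusted p under 0.05. That number of called probe sets depended on single arrays. It was 134 without control replicate 1, 207 without control replicate 2, 300 without control replicate 11 and 759 without control replicate 12. It was 271 without medium dose replicate 12 and 305 without medium dose replicate 11, and 260 without high dose replicate 11 and 307 without high dose replicate 7. The 4 samples of S1 averaged 8.90 (8.8 to 9.0) and the 10 of S2 averaged 8.86 (8.6 to 9.1). Set S3, with 8 samples, averaged 8.68 (8.5 to 8.8), set S4, with 9, averaged 8.54 (8.4 to 8.7), and the 5 samples of S5 averaged 8.88 (8.8 to 9.0). The highest S4 sample lay below the lowest samples of S1 and S5, whereas S2 and S3 overlapped with S4 and S1, S2 and S5 overlapped with each other.

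Within S4 the NANS mean was 8.53 in control, 8.60 in medium dose and 8.50 in high dose samples, so the low level was present in each feeding group there. The difference between set codes kept its call in all 36 fits that left out 1 sample (adjusted p 0.007 to 0.0298) and with the spike-in status as a further block (adjusted p = 0.014). Without the 9 samples of S4 it did not pass (adjusted p = 0.341). The batch, litter or other difference that the set codes stand for is not given in the sources used here, and what sets S4 apart was not tested.

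**Figure D3:**
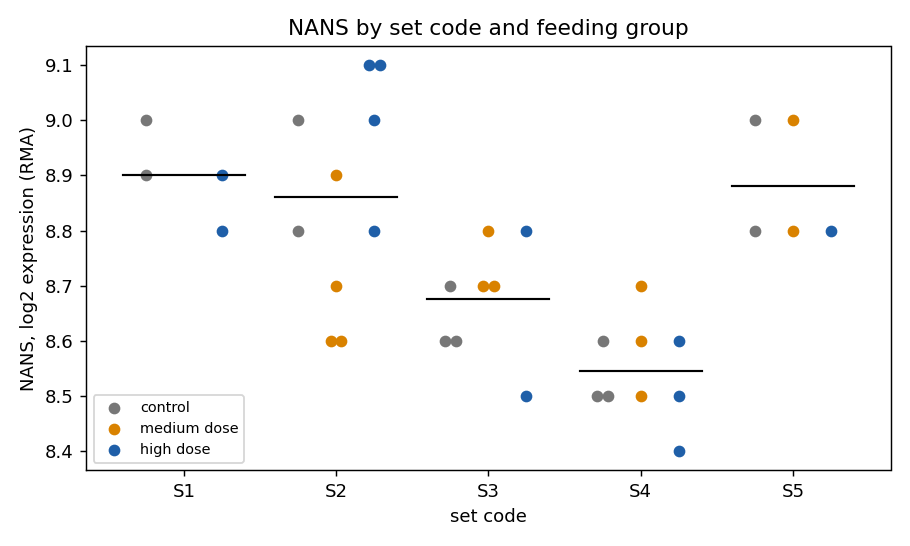
NANS log2 expression (y axis) in each of the 5 set codes (x axis), with 1 point per animal coloured by feeding group and a line at the mean of each set. The S4 samples run from 8.4 to 8.7 in all 3 feeding groups, below every S1 and S5 sample.

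The other 5 members had adjusted p between 0.457 and 0.993 for set code. GNE ran from a mean of 7.67 in S4 to 7.80 in S2, and ST8SIA4 from 8.03 in S3 to 8.20 in S5. NANP, the phosphatase that acts after NANS, had unadjusted p = 0.00981 for set code (adjusted p = 0.137, limma). Among the 9 synthesis genes NANS and NANP were the 2 with p under 0.05, against 17.4% of all probe sets. No member passed the test for a dose difference that depended on set code (adjusted p of the interaction 0.726 to 0.959, limma). In that test 3 probe sets, 0.0167%, were called and 6.92% had unadjusted p under 0.05. Each set code held few samples per feeding group, so this does not show that the dose differences were alike across sets. NANS had the smallest interaction p of the 6, at 0.0807.

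For the chosen ST8SIA4 probe set the difference between dose and control was on the lower side or at 0 in every set code. For medium dose minus control S2 gave -0.20, S3 -0.33, S4 -0.27 and S5 0. For high dose minus control S1 gave 0, S2 -0.03, S3 -0.33, S4 -0.23 and S5 -0.25. The second ST8SIA4 probe set ran from -0.40 in S2 to 0 in S5 at the medium dose. At the high dose it was on both sides of 0, with S1 at 0.45 and S2 at 0.03, against S3 at -0.38, S4 at -0.30 and S5 at -0.30. Each of these values compares between 1 and 4 samples per group and has no test of its own.

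For ST3GAL3, medium dose minus control was largest in S3 at -0.60, with S2 at -0.20, S4 at -0.10 and S5 at 0. NPL differed by -0.30, -0.30 and -0.33 in S2, S3 and S4 and by 0.15 in S5. At the high dose ST3GAL3 ran from -0.45 in S1 to 0.07 in S4 and NPL from -0.33 in S2 to 0.15 in S5.

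**Figure D4:**
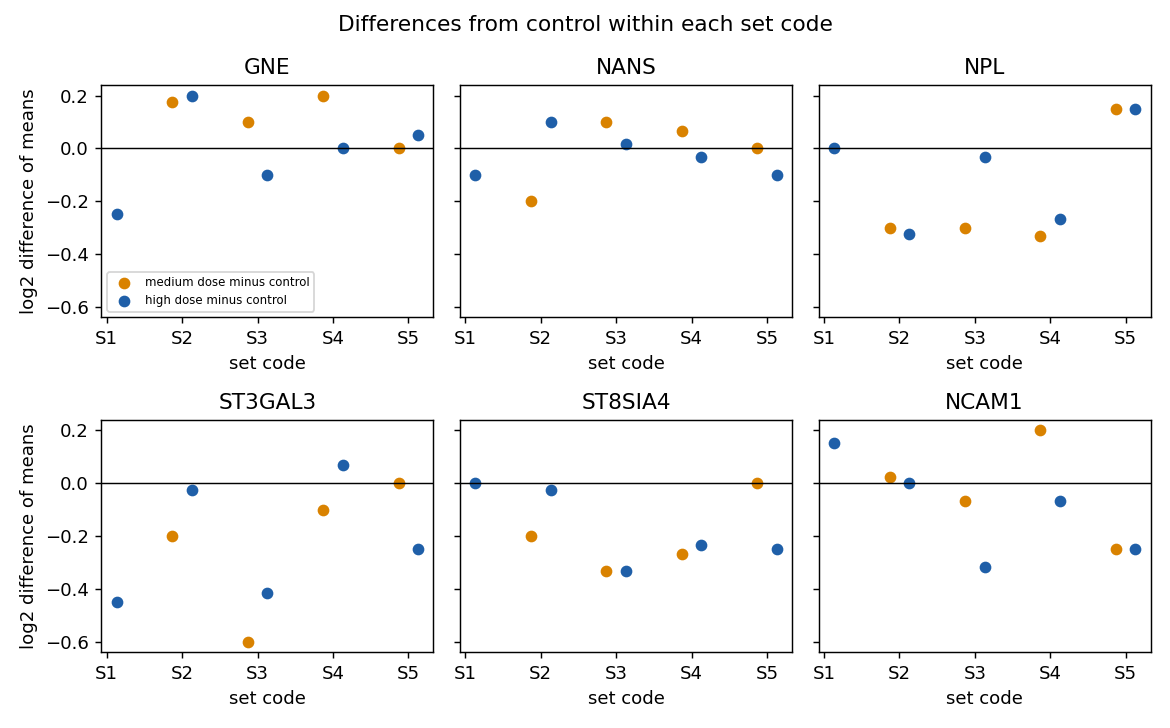
Log2 difference between dose and control means (y axis) within each set code (x axis) for the medium dose (orange) and the high dose (blue). S1 has no medium dose sample. The values are those of the probe set chosen for each gene. ST8SIA4 has no point above 0. ST3GAL3 reaches -0.60 in S3, and ST3GAL3, NPL, GNE, NANS and NCAM1 have points on both sides of 0.

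The genes were last compared with each other across animals. Of 63 relations tested over 36 arrays, among members and between members and 8 sets of cell type markers, 15 had an adjusted p of r under 0.05. Not all of these passed by rho, whose permutation p was adjusted over the same 63. By rho, adjusted p was 0.06 for GNE with NANS and for ST8SIA4 with NCAM1, and 0.067 for GNE with NCAM1. With the neuron mean it was 0.1 for GNE and 0.067 for ST8SIA4, and with the oligodendrocyte mean 0.092 and 0.093. NCAM1 with the choroid plexus mean had 0.094. The rest of the 15 had 0.039 or less. NCAM1 was the most strongly related to neuronal markers. Its r with the mean of 4 immature neuron markers was 0.80 (permutation p = 1e-05, rho = 0.83, permutation p = 1e-05, adjusted p = 0.00042, r = 0.77 without 2 arrays). Set S2 gave 0.95, S3 0.47 and S4 0.75. This mean is a partial measure, and whether it follows immature neurons was not tested. With the 9 neuron markers r was 0.69 (permutation p = 2e-05, rho = 0.66, permutation p = 2e-05, adjusted p = 0.00042, r = 0.62 without 2 arrays), with 0.85 in S2, -0.17 in S3 and 0.71 in S4. The neuron mean varied little in S3, with an SD of 0.08 against 0.23 in S2 and 0.17 in S4, so r in S3 rests on a narrow range.

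With 13 oligodendrocyte markers NCAM1 had r = -0.63 (permutation p = 3e-05, rho = -0.59, permutation p = 0.00016, adjusted p = 0.00047, r = -0.55 without 2 arrays), and within sets r was -0.76 in S2, -0.40 in S3 and -0.30 in S4. With VCAN, the 1 tested gene of the oligodendrocyte precursor list, r was -0.65 (permutation p = 2e-05, rho = -0.62, permutation p = 3e-05, adjusted p = 0.00042, r = -0.59 without 2 arrays), and within sets -0.90 in S2, -0.50 in S3 and -0.14 in S4. VCAN is also expressed by other cells, so 1 gene does not stand for that cell type.

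NPL was related to the microglia mean with r = 0.62 (permutation p = 0.00023, rho = 0.55, permutation p = 0.00064, adjusted p = 0.0029, r = 0.50 without 2 arrays), and r was 0.39 in S2, 0.68 in S3 and 0.64 in S4. Its relations to the other 7 marker means had adjusted p of r from 0.24 upward.

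Within the pathway, GNE was related to NANS with r = 0.42 (permutation p = 0.011, rho = 0.44, permutation p = 0.0086, adjusted p = 0.045, r = 0.36 without 2 arrays), at 0.48 in S2, 0.48 in S3 and 0.34 in S4. GNE and NCAM1 had r = 0.49 (permutation p = 0.0026, rho = 0.42, permutation p = 0.012, adjusted p = 0.014, r = 0.47 without 2 arrays), at 0.40 in S2, 0.58 in S3 and 0.43 in S4. ST8SIA4 and its carrier NCAM1 had r = 0.51 (permutation p = 0.0015, rho = 0.43, permutation p = 0.0082, adjusted p = 0.011, r = 0.42 without 2 arrays). That last relation was not the same within sets, with 0.71 in S2, 0.28 in S3 and -0.23 in S4. NPL and ST3GAL3 had r = 0.33 (permutation p = 0.05, rho = 0.20, permutation p = 0.24, adjusted p = 0.16), which was -0.02 without 2 arrays and so rests on them.

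GNE and ST8SIA4 also followed the neuron mean and ran against the oligodendrocyte mean over all arrays. For the neuron mean r was 0.54 for GNE (permutation p = 0.0011, rho = 0.38, permutation p = 0.024, adjusted p = 0.0095, r = 0.35 without 2 arrays) and 0.51 for ST8SIA4 (permutation p = 0.0012, rho = 0.42, permutation p = 0.011, adjusted p = 0.0095, r = 0.33 without 2 arrays). These did not hold in every set: for GNE, S2 gave 0.53, S3 -0.46 and S4 0.65, and for ST8SIA4, S2 gave 0.72, S3 0.44 and S4 -0.24. The values in S3 rest on the narrow range of the neuron mean there. For the oligodendrocyte mean r was -0.49 for GNE (permutation p = 0.0027, rho = -0.39, permutation p = 0.018, adjusted p = 0.014, r = -0.30 without 2 arrays) and -0.48 for ST8SIA4 (permutation p = 0.0029, rho = -0.39, permutation p = 0.019, adjusted p = 0.014, r = -0.27 without 2 arrays). For GNE, S2 gave -0.49, S3 -0.48 and S4 -0.52, and for ST8SIA4, S2 gave -0.71, S3 -0.01 and S4 0.44. High dose replicate 2 bore on these: without it r was 0.38 for GNE and 0.41 for ST8SIA4 with the neuron mean, and 0.44 for ST8SIA4 with NCAM1. With the oligodendrocyte mean r was -0.33 for GNE and -0.38 for ST8SIA4 without it. GNE had 0.40 with NCAM1 and 0.45 with the immature neuron mean, and NCAM1 had -0.38 with the choroid plexus mean. Of the 15 relations, 7 kept an adjusted p of r under 0.05 without that array: GNE with NANS and with the choroid plexus mean, NCAM1 with the neuron, immature neuron and oligodendrocyte means and with VCAN, and NPL with the microglia mean.

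GNE also had r = 0.50 with the immature neuron mean (permutation p = 0.0019, rho = 0.49, permutation p = 0.0029, adjusted p = 0.012, r = 0.45 without 2 arrays), at 0.41 in S2, 0.80 in S3 and 0.58 in S4. The choroid plexus and ependymal mean ran against GNE with r = -0.56 (permutation p = 0.00033, rho = -0.47, permutation p = 0.0043, adjusted p = 0.0035, r = -0.40 without 2 arrays) and against NCAM1 with r = -0.47 (permutation p = 0.0041, rho = -0.39, permutation p = 0.021, adjusted p = 0.019, r = -0.37 without 2 arrays). For GNE it was -0.20 in S2, -0.72 in S3 and -0.62 in S4, and for NCAM1 -0.56, -0.16 and -0.43 in the same sets. ST3GAL3 and NANS had no relation to a marker mean at an adjusted p of r under 0.05.

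**Figure D5:**
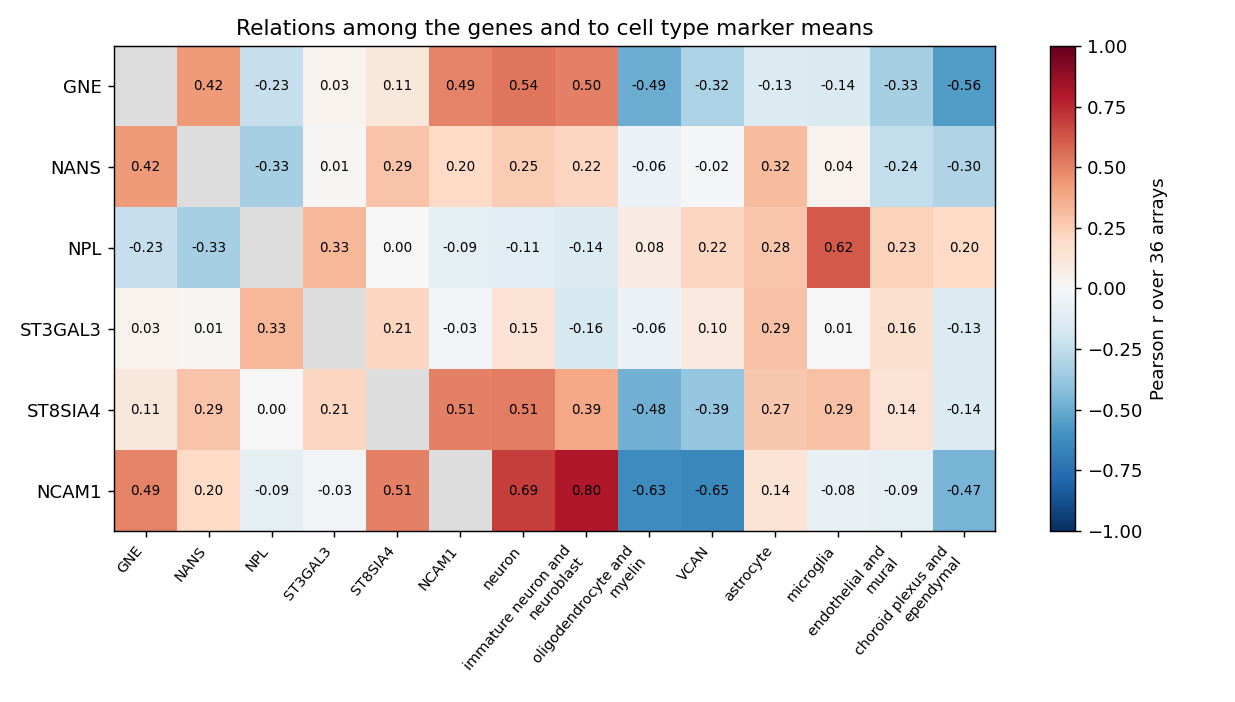
Pearson r over the 36 arrays (colour and printed value) between each gene (rows) and the other genes or the mean of each marker set (columns). Grey cells are a gene against itself, and VCAN stands for the oligodendrocyte precursor set, of which it was the 1 tested gene. NCAM1 has the largest values, at 0.80 with the immature neuron mean and -0.65 with VCAN, and NPL has 0.62 with the microglia mean.

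The genes whose pattern over the 36 arrays was most like each member were taken from 6033 other named genes by the highest r, and are a description. For NCAM1 they were SCG2 (r = 0.80), a secretory granule protein, GAD1 (0.78), which makes GABA, and RTN1 (0.78), a reticulon of the endoplasmic reticulum. GAD1 is also one of the neuron markers. For ST8SIA4 the most alike genes were CRIM1 (0.83), ELAVL4 (0.79), which is also one of the immature neuron markers, and DPY19L1 (0.79). For NPL they were BLNK (0.74), an adaptor of immune receptor signalling, LPAR6 (0.71), a lysophosphatidic acid receptor, and CD53 (0.69), a leukocyte tetraspanin. For GNE they were SYNE1 (0.80), JPT1 (0.78) and EIF1B (0.78), for NANS MALSU1 (0.76), EIF2B2 (0.75) and FAM162A (0.74), and for ST3GAL3 SUMO3 (0.78), TMEM35A (0.74) and PSPC1 (0.70). Each r within S2, S3 and S4 was positive, and the lowest was 0.17 for GAD1 with NCAM1 in S3. The arrays of these sets are among the 36 by which the genes were picked, so this is no separate check.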

How the data were processed

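Total RNA from 36 hippocampus samples was hybridised to Affymetrix porcine genome arrays, and the authors deposited log2 values rounded to 1 decimal. Per the submitters' processing notes, these came from Affymetrix Expression Console 1.1 with RMA, which corrects background, normalises the arrays and summarises probes. No raw intensities were used. Tests ran on 18006 of 23999 probe sets, those whose mean reached the 25th percentile (log2 4.92), after removal of 124 array controls. Names came from the 2016 array annotation: 10069 probe sets have 1 symbol, 198 several and 13732 none.

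The members, lists, contrasts and alternatives were chosen with earlier results of these data known. All 6 members were named, with up to 3 non-members per pathway list and contrast with the smallest p, genes past the adjusted threshold, and the 3 genes most alike to each member. Models (limma 3.58.1 in R 4.3.3) held feeding group and set code over 36 samples, with two-sided eBayes tests, Benjamini-Hochberg adjustment over 18006 probe sets and a threshold of 0.05, and were tested on simulated data. Relations used 100000 permutations, two-sided, with Benjamini-Hochberg adjustment over 63 (SciPy 1.17.1, Python 3.11.15, matplotlib 3.10.9). Nothing says whether samples are littermates, so p-values measure the spread between these samples. The alternatives were other blocks, filters, normalisations and weightings, fits with marker means as covariates, and leaving out samples or set codes. The number of arrays limits the precision.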

Additional observations from a re-analysis of the deposited data

How the results depend on the processing

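Over 454 member differences in other settings, 24 changed sign, 430 did not and 0 passed an adjusted p of 0.05. ST3GAL3 for medium dose minus control ran from -0.36 to -0.16 over 18 settings, ST8SIA4 from -0.33 to -0.17 over 20 and NPL from -0.28 to -0.08 over 19. The count of members at unadjusted p under 0.05 (3 for medium dose minus control) was 1 with a replicate block used alone or beside the set block, with the 50th percentile filter (which drops ST3GAL3 and NPL), without S2, without S4, with the microglia mean as covariate and with the 2 compared groups alone, 2 with no set block, a random set block or the oligodendrocyte and neuron covariates, and 0 without S3. For the mean of both doses minus control (2) it was 3 with median centring, with array weights and without S5, 1 with either replicate block, the spike-in block, the 50th percentile filter, without S4 and with the microglia covariate, and 0 without S3; without S1 it was 2, with NPL (p = 0.0464) and not ST3GAL3 (p = 0.0978) beside ST8SIA4. For high dose minus control (0) it was 1 without S1 and with the oligodendrocyte and neuron covariates. Leaving out 1 sample at a time, it was 1 to 3 for medium dose minus control, 0 to 3 for the mean of both doses (0 without high dose replicate 2 or control replicates 3, 7 or 8), 0 to 2 for high dose minus control (1 without control replicate 4, 2 without high dose replicate 1) and 0 to 1 for high minus medium dose (1 without high dose replicate 1). The count for medium dose minus control was 1 without high dose replicates 2 or 6, control replicates 2, 3, 5, 7 or 9, or medium dose replicates 7 or 8. Probe sets past an adjusted p of 0.05 numbered 0 in each contrast, but 1 for high minus medium dose with array weights, and for medium dose minus control 4 without S1, 1 with the oligodendrocyte and neuron covariates and 11 with the 2 groups alone; the cause was not tested.

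Signs changed only for differences close to 0. For NANS, high dose minus control was -0.036 with the replicate block and the set block, -0.046 without S2 and -0.011 with the 2 groups alone; high minus medium dose was -0.029 with both blocks and -0.10 without S2; medium dose minus control was 0.056 without S2; and the mean of both doses minus control was 0.0023 with quantile normalisation, 0.016 with array weights, 0.0088 without S1, 0.0049 without S2, 0.0024 with the microglia covariate and 0.001 without high dose replicate 2. For NCAM1, medium dose minus control was -0.0075 with array weights, -0.012 without S1, -0.055 without S4, -0.034 with the oligodendrocyte and neuron covariates, -0.014 with the microglia covariate, -0.0031 with the 2 groups alone and -0.035 as the mean of all its probe sets, and the mean of both doses was 0.0044 without S3 and 0.0049 without S5. For GNE, high dose minus control was 0.0079 with array weights, 0.039 without S1, 0.0103 without S3 and 0.034 without high dose replicate 2, and for ST8SIA4 high minus medium dose was -0.004 without S2. Of 36 same-numbered pairs of samples, 8 had a correlation over 0.1 (median 0.0006, -0.45 to 0.31), and 24 shared a set code. No values for differently numbered pairs are given, so whether the replicate numbers pair the samples is not settled. Without high dose replicate 2, 7 of 15 relations kept an adjusted p of r under 0.05. ST3GAL3 and NPL lie below the 50th percentile of probe set means, and all values have 1 decimal.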

Other observations

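The genes most like NANS over the arrays were also followed by set code. FAM162A, a mitochondrial protein, had means of 9.78, 9.74, 9.60, 9.60 and 9.82 in S1 to S5 (p = 0.0207, adjusted p = 0.192, limma), and EIF2B2, a subunit of the translation factor eIF2B, had 8.55, 8.55, 8.47, 8.41 and 8.56 (p = 0.0417, adjusted p = 0.264). MALSU1, a mitochondrial ribosome assembly factor, had 9.30, 9.29, 9.22, 9.18 and 9.30 (p = 0.0657, adjusted p = 0.324). Each was lowest in S4 or shared the lowest mean with S3, and none passed the adjusted threshold. They were chosen for their likeness to NANS, so their order by set is not independent of it. Among microglia markers CTSS, a lysosomal cysteine protease, passed for set code (adjusted p = 0.0407).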
